A study of Mus musculus with 2 samples.

Results

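The 50 genes described here encode the proteins that license replication origins, open the DNA and copy it at the fork. They were taken by gene symbol, which was matched through the Ensembl ID of each row, and all 50 were found among the 36227 genes of the table, 18364 of which carried counts. RNA had been measured in 2 libraries of mature oocytes, arrested in second meiotic metaphase (MII) and ovulated naturally by ICR mice, an outbred stock. The young library was a pool of 18 oocytes from 6 females of 3 months, and the aged library a pool of 18 oocytes from 6 females of 12 months. No genotype or treatment other than age is named for either group. The study asked how maternal age alters the mRNA of mature oocytes. With 1 library per age there is no replicate check, so no test of age was run, and values describe these 2 pools. All intervals below are 95% intervals that cover counting error only. They treat reads as independent, but the libraries were amplified by PCR without molecular identifiers, so they may be too narrow.

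Before a cell copies its DNA, the origin recognition complex (ORC) marks origins, and Cdc6 and Cdt1 load onto them the ring-shaped helicase made of the MCM proteins, a step called licensing. Geminin blocks Cdt1 so that no origin is licensed again in the same cycle. The firing kinase Cdc7-Dbf4 then activates the loaded rings together with Cdc45 and the GINS complex, and polymerases, the sliding clamp and single-strand binding proteins copy the opened strands. A mature oocyte makes almost no new RNA and does not replicate between its meiotic divisions, so the mRNA of these genes is a store laid down during growth. The first S phase after fertilisation draws on that store and on proteins already present.

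Counts summed to 19475110 in young and 18597656 in aged oocytes. A level is given in CPM, a count scaled to a library total of 1000000, and 1 count was worth 0.0513 CPM in the young and 0.0538 CPM in the aged library. All 12 oocyte markers were found in both libraries, with a summed level of 168134 CPM (young) and 96551 CPM (aged). Gdf9 was the largest part of it, at 97099 CPM and 42795 CPM. By ratio, 8 of the 12 were lower in the aged library and 4 higher (Zp3, Zar1, Nlrp5 and Dppa3). Of 22 markers of cumulus, granulosa, stromal, blood and endothelial cells, 8 had no count in the young library and 11 none in the aged one. Their summed level was 54.4 CPM and 103 CPM, with single markers between 0 and 56.8 CPM. Cyp19a1 (436 and 1056 counts) and Pecam1 (381 and 723) made up most of it, and the other 20 summed to 12.4 CPM and 7.42 CPM, to which Cd68 gave 84 counts in each library. Vim had 51 and 0 counts, Cyp11a1 27 and 1, Inha 14 and 0 and Nr5a1 11 and 0, whereas Fshr had 0 and 16. The granulosa markers Foxl2, Amh, Amhr2, Inhba, Star and Lhcgr had no count listed for either library. The part of such cells in the values below was not tested. In pooled material, fewer oocytes that hold a transcript and less of it per oocyte cannot be told apart.

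Every member had at least 1 count in each library. Counts ran from 1 for Rfc4 to 7704 for Mcm2 in the young library, with a median of 394.5, and from 3 for Prim1 to 8873 for Mcm2 in the aged library, with a median of 656.5. Together the members took 0.253% of the young library's counts (Wilson interval 0.251% to 0.255%) and 0.369% of the aged library's (0.366% to 0.371%). This put their summed level at 2530 CPM and 3686 CPM, a log2 ratio of 0.54. The pool from aged females therefore held the larger share of the members' mRNA when libraries were scaled to their totals. This did not extend in like size to the 60 other replication genes listed below. Their summed level was 7341 CPM in young and 7829 CPM in aged oocytes, a log2 ratio of 0.09. That sum rests in large part on 1 gene, Ddb1, which was 1.44-fold lower. It held 55823 of their 142968 counts in young and 36998 of 145598 in aged oocytes. All genes above the count minimum given below had a median log2 ratio of 0.43. The larger share is therefore not read as particular to replication genes.

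Calls were limited to genes that averaged 20 counts or more, which 48 members did and Orc3 and Prim1 did not. Of the 48, 17 were higher in the aged pool by 2-fold or more, where 27.9% of all 10211 genes above that minimum were, and 7 were lower by as much, where 10.6% of all genes were. The remaining 24 were within 2-fold. The counting interval itself lay beyond 2-fold for 13 higher members, against 18.0% of all genes, and for 5 lower members, against 6.35%. The members had a median log2 ratio (aged over young) of 0.68, with quartiles of −0.19 and 1.31, against 0.43 for all genes. A ratio above 0 was found for 34 of 48 members and for 66.4% of all genes. With 1 library per age, nothing particular to the members is read from these counts.

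Because the median gene itself was 0.43 above equality, the direction of a small difference depends on the scaling. Relative to the median gene, 9 members were at least 2-fold higher, against 16.0% of all genes, and 10 were lower, against 17.3%. The 9 were Orc4, Orc5, Mcm8, Gins4, Pcna, Rfc4, Rpa1, Top1 and Top2b. The 10 were Orc6, Cdt1, Pola2, Pold1, Pold2, Pole, Pole2, Rfc2, Rpa2 and Rpa3. The split of called members was thus 17 to 7 with library totals, 9 to 10 relative to the median gene, 10 to 9 with edgeR's TMM factors (trimmed mean of M-values) and 13 to 9 with totals that omit the 100 most abundant genes. For the TMM factors and the reduced totals the share of all genes called was not computed. Nothing particular to the members is therefore read from those splits. A further scale, given for some genes only, sets each log2 ratio against the median of genes of like transcript length and GC content. It uses 10 classes of each. Among members not given on that scale below, it turned Mcm9 from 0.15 to −0.25 and Timeless from 0.08 to −0.09. Orc2 stood at 0 on it. Among the other replication genes named but not given on that scale below, it turned Pole3 (0.04 to −0.56), Ccne2 (0.71 to −0.50), Mms22l (0.29 to −0.30), Skp2 (0.12 to −0.75) and Asf1a (0.91 to −0.07). Differences between 2 subunits of the same complex do not depend on the scaling of libraries, since the total cancels, and they are given below as the factor by which the count ratio of the subunits changed. The pairs were chosen after their values were seen.

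**Figure D1:**
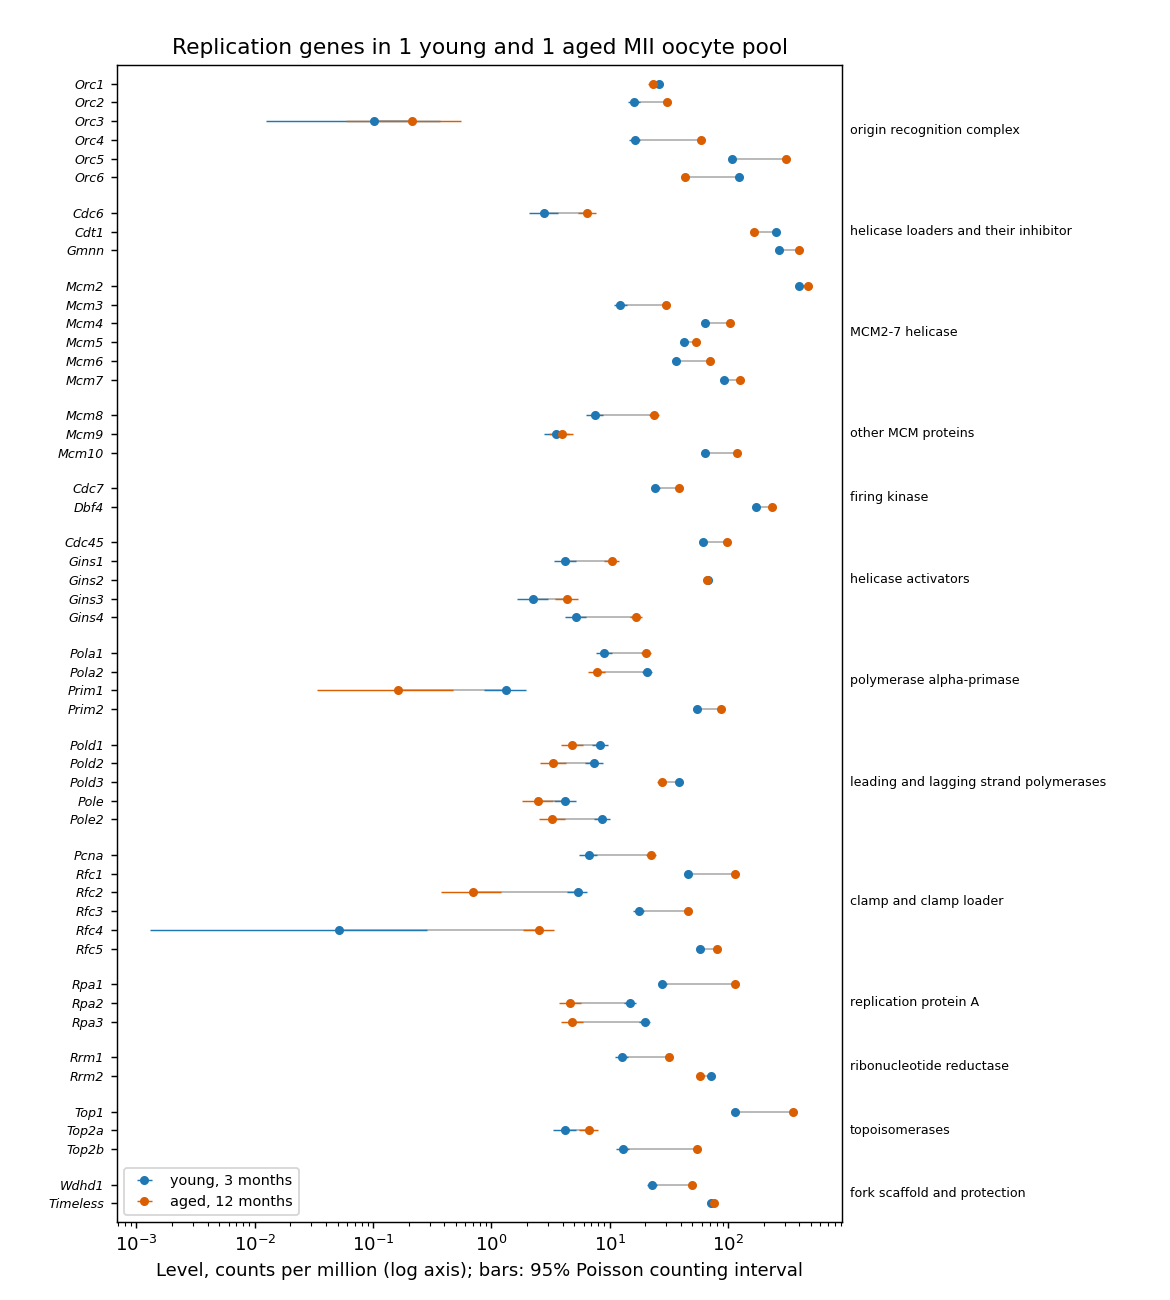
Level of each replication gene in CPM (log axis) in the young library (blue) and the aged library (orange), with 95% Poisson counting intervals. Genes are grouped by role; most members of the early steps lie further right in the aged library, while the 5 members plotted for polymerases delta and epsilon (Pold1, Pold2, Pold3, Pole and Pole2) lie further left.

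In cycling cells many of these genes are switched on before S phase by E2F transcription factors, and the letters of an E2F site were looked for in RefSeq promoters (250 bases before to 50 after each transcription start, GRCm38.p6, another build than that of the counts). For 42 members 48 promoters were listed. The letters TTTCGCGC or TTTGGCGC, on either strand, were present in 10 of these 48 promoters (20.8%) and in 267 of all 32851 promoters (0.813%). The 10 genes with a match were Orc1, Cdt1, Mcm3, Mcm5, Mcm6, Mcm7, Mcm8, Pola1, Pole2 and Rfc3. The shorter CCAAT letters, on either strand, were in 60.4% of member promoters and 37.4% of all promoters. The 5 stretches of 60 bases below lie before the start site and are shown because they come from successive steps of replication. Capitals mark E2F letters of either strand.
Orc1 (chr4:108579394-108579453, plus strand): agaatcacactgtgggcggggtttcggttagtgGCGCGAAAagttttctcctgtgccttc
Mcm5 (chr8:75109330-75109389, plus strand): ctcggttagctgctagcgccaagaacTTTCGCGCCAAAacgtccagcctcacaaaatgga
Mcm6 (chr1:128359782-128359841, minus strand): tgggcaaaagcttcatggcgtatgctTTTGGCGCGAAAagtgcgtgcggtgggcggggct
Pola1 (chrX:93632260-93632319, minus strand): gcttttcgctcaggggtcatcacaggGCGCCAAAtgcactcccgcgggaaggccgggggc
Rfc3 (chr5:151651209-151651268, minus strand): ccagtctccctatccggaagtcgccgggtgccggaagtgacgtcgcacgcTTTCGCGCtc

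In Mcm5 and Mcm6 matches on the 2 strands overlapped to form a longer run. The members with these letters did not share a direction between the libraries. Of the 10, Mcm3, Mcm8, Pola1 and Rfc3 were higher in the aged pool by 2-fold or more and Pole2 was lower, with a median log2 ratio of 0.69 and a range of −1.39 to 1.67. The median of the 30 members above the count minimum whose listed promoters lacked the letters was 0.68.

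Stored oocyte mRNAs are held with short poly(A) tails or given longer ones during maturation through the cytoplasmic polyadenylation element (CPE), U-rich letters near the poly(A) signal. Both libraries were primed with oligo(dT), so the tail bears on what is captured. The letters TTTTAT or TTTTAAT on the transcript strand were found in the last 100 bases of the annotated transcript of 20 of 44 members above the count minimum with a 3′ UTR of that length or more (45.5%). They were found in 21.2% of 8785 such genes in all. The following windows of 30 bases (GRCm38) show chosen members in which these letters lie near the signal AATAAA or ATTAAA. Capitals mark the CPE letters and the signal. In the Cdc45 window the CPE letters and the signal overlap, so they form a single run of capitals.
Mcm2 (chr6:88883484-88883513, minus strand): ttattTTTTAATagatttgAATAAAaccta
Mcm7 (chr5:138164608-138164637, minus strand): gcacttTTTTATtctgccAATAAAgtgttt
Cdc45 (chr16:18780457-18780486, minus strand): actatatggtTTTTAATAAAatgtttgatg
Gins3 (chr8:95645018-95645047, plus strand): TTTTATcattcgactttcatcctaAATAAA
Rpa1 (chr11:75298176-75298205, minus strand): cagtgTTTTATgccttccATTAAAcccttg

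Members with CPE letters had a median log2 ratio of 0.61, with 6 at least 2-fold higher and 3 lower. The 24 without them had a median of 0.81, with 10 higher and 2 lower. Among all genes the median was 0.38 for the 1863 with the letters, of which 464 were higher and 191 lower. It was 0.46 for the 6922 without, of which 1983 were higher and 648 lower. The tail lengths of these mRNAs were not measured, and whether the annotated 3′ end is the one used in oocytes was not tested.

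The genes of ORC, the 6-subunit complex that marks origins, differed in direction. Orc4 had 316 counts in young and 1094 in aged oocytes, a 3.63-fold higher level (3.20 to 4.12). Orc5 had 2116 and 5713 counts, 2.83-fold higher (2.69 to 2.97). Orc6, the smallest subunit and the least tightly bound, went the other way with 2414 and 805 counts, 2.86-fold lower (2.64 to 3.11). Counts of Orc5 relative to Orc6 were therefore 0.877 (young) and 7.10 (aged), a factor of 8.10 (7.37 to 8.90). Orc4 relative to Orc6 changed by a factor of 10.4 (8.93 to 12.1). Orc6 was thus the most counted ORC subunit of the young pool and the third of the aged one.

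Orc2 had 312 and 567 counts, 1.90-fold higher (1.65 to 2.19), and Orc1, the subunit that joins the complex late in many cells, had 506 and 434, 1.11-fold lower (interval 0.977 to 1.27, a range that includes equality). Orc3 was nearly absent, with 2 and 4 counts, which gives a ratio of 2.09 with an interval of 0.3002 to 23.2 and supports no direction. Per kilobase of transcript, Orc5 stood at 51.7 CPM in the young and 146 CPM in the aged library, while Orc3 stood at 0.0447 and 0.0935 CPM. Orc3 was thus the lowest subunit per kilobase in both libraries, although the core subunits work as 1 complex. Exons of 12 members overlap those of another coding gene, and without knowledge of strand in the counting such reads cannot be told apart. Orc4 exons overlap those of Acvr2a by 446 bases and of Mbd5 by 136, on the other strand. Acvr2a had 34 and 86 counts (log2 ratio 1.41) and Mbd5 191 and 348 (0.93), both in the direction of Orc4. Orc2 exons overlap those of Nif3l1 by 1150 bases and Orc6 exons those of Vps35 by 171 bases, also on the other strand. Nif3l1 had 373 and 311 counts, and Vps35 624 and 1761, a log2 ratio of 1.56 and opposite to that of Orc6. The part of these neighbours in the ORC values was not tested.

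Of the helicase loaders, Cdt1 was abundant and Cdc6 scarce. Cdc6, the ATPase that joins ORC to recruit the helicase, had 54 and 120 counts, 2.33-fold higher in the aged library (1.67 to 3.27). Cdt1, which brings the MCM rings, had 4926 and 3110 counts, 1.51-fold lower (1.45 to 1.58). Gmnn, which encodes geminin, the inhibitor of Cdt1, had 5282 and 7355 counts, 1.46-fold higher (1.41 to 1.51). Geminin mRNA was the most abundant of all members per kilobase, at 241 CPM in the young and 351 CPM in the aged library. Gmnn counts were 1.07 times those of Cdt1 in the young and 2.36 times in the aged pool, a factor of 2.21 (2.08 to 2.34). Once each log2 ratio was set against genes of like length and GC content, the log2 difference between Gmnn and Cdt1 was 0.33 in place of 1.14.

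The 6 genes of the replicative helicase, Mcm2 to Mcm7, all had more CPM in the aged library, from 1.21-fold for Mcm2 to 2.43-fold for Mcm3. Mcm3 relative to Mcm2 changed by a factor of 2.02 (1.73 to 2.35). Mcm3, with 239 and 555 counts, was the 1 member of this ring at least 2-fold higher, at 2.43-fold (2.09 to 2.84). Mcm6 had 704 and 1302 counts (1.94-fold), Mcm4 1232 and 1928 (1.64-fold) and Mcm7 1808 and 2333 (1.35-fold). The smallest differences were those of Mcm5, with 826 and 1004 counts (1.27-fold), and Mcm2, with 7704 and 8873 (1.21-fold, 1.17 to 1.24). The median log2 ratio of the ring was 0.57, which is 0.15 relative to the median gene. Only 4 of the 6 lay above the median gene, so that scaling decides the direction for Mcm2 and Mcm5, and Mcm4 stood at −0.04 against genes of like length and GC content.

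The ring contains its subunits in equal number, but their mRNAs were far from equal. Per kilobase, Mcm2 stood at 117 CPM in the young and 141.5 CPM in the aged library, next Mcm7 at 31.3 and 42.4 CPM, and last Mcm3 at 4.05 and 9.85 CPM. Mcm4, Mcm5 and Mcm6 lay between 12.4 and 17.6 CPM in the young and between 16.0 and 28.9 CPM in the aged library. Mcm2, Mcm7 and Mcm4 were the highest of the ring in both libraries, in that order.

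Of the 3 MCM proteins outside the ring, Mcm8 was higher by 2-fold or more and the other two were within 2-fold. Mcm8, which forms a separate helicase with Mcm9 that acts in recombination repair, had 145 and 440 counts, 3.18-fold higher (2.63 to 3.86). Its partner Mcm9 had 69 and 73 counts, a ratio of 1.11 with an interval of 0.786 to 1.56, and lay below the median gene. Mcm8 relative to Mcm9 grew by a factor of 2.87 (1.93 to 4.26). Exons of Mcm9 overlap those of Asf1a by 1748 bases on the other strand, and Asf1a had 1231 and 2215 counts. Mcm10, which helps to start the helicase, had 1242 and 2233 counts, 1.88-fold higher (1.76 to 2.02).

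Both subunits of the kinase that fires origins were within 2-fold, and both stood below 0 against genes of like length and GC content (−0.11 and −0.41). Cdc7, the catalytic subunit, had 473 and 722 counts, 1.60-fold higher (1.42 to 1.80). Dbf4, its activator, had 3346 and 4343 counts, 1.36-fold higher (1.30 to 1.42), and was among the 5 most abundant members per kilobase in both libraries. Of the 5 activators that turn the loaded ring into a working helicase, 2 were higher by 2-fold or more. Cdc45 had 1203 and 1833 counts, 1.60-fold higher (1.48 to 1.72).

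GINS is a complex of 4 different subunits, and its mRNAs differed unequally. Gins4 had 100 and 311 counts, 3.26-fold higher (2.59 to 4.12), and Gins1 82 and 193, 2.46-fold higher (1.89 to 3.23). Gins3 had 44 and 81 counts, 1.93-fold higher (1.32 to 2.85). Gins2 had 1320 and 1231 counts, within 1.02-fold. The count ratio of Gins4 to Gins2 grew by a factor of 3.33 (2.62 to 4.28). Gins2 exons share 2758 bases with those of Gse1 on the other strand, and Gse1 had 1260 and 1131 counts. Reads of these genes cannot be told apart without strand.

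Polymerase alpha, which starts every new strand with a primer made by its primase subunits, was split. Pola1, the catalytic subunit, had 174 and 378 counts, 2.27-fold higher (1.90 to 2.74). Pola2, its accessory subunit, had 405 and 144 counts, 2.69-fold lower (2.22 to 3.27). Pola1 relative to Pola2 changed from 0.430 to 2.62, a factor of 6.11 (4.66 to 8.01). The log2 difference between them was 2.61, and 1.73 against genes of like length and GC content. Prim2, the large primase subunit, had 1058 and 1625 counts, 1.61-fold higher (1.49 to 1.74). Prim1, the small catalytic primase subunit, had 26 and 3 counts, a ratio of 8.28 towards the young library with an interval of 2.54 to 42.7. It lay below the minimum of 20 and enters no count above.

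The 5 members that belong to polymerases delta and epsilon, which copy the lagging and the leading strand, had a lower level in the aged pool, 2 of them by 2-fold or more. Other subunits of these enzymes, given after them, included one that was higher. Pole2, the second subunit of polymerase epsilon, had 167 and 61 counts, 2.61-fold lower (1.94 to 3.57). Pold2, the second subunit of polymerase delta, had 144 and 62 counts, 2.22-fold lower (1.64 to 3.04). For the catalytic subunits, Pold1 had 162 and 89 counts (1.74-fold lower, 1.33 to 2.28) and Pole 82 and 46 (1.70-fold lower, 1.17 to 2.50). Pold3, a further delta subunit, had 754 and 510 counts, 1.41-fold lower (1.26 to 1.58). All 5 intervals excluded equality, but none lay wholly beyond 2-fold, and that of Pold3 lay wholly within it. Their median log2 ratio was −0.80, or −1.22 relative to the median gene, where 4 of the 5 were at least 2-fold lower. Against genes of like length and GC content all 5 were below 0 as well, with a median of −1.06, and Pold3, Pole and Pole2 were at least 2-fold lower.

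The small subunits of the same enzymes, which are not members, were within 2-fold and differed in direction. Pole4, a histone-fold subunit of polymerase epsilon, had 9952 and 16646 counts, 1.75-fold higher in the aged pool (1.71 to 1.80), although it stood at −0.12 against genes of like length and GC content. Pole3, its histone-fold partner, had 9426 and 9261 counts, a log2 ratio of 0.04. Pold4 had 33 and 25 counts, with an interval of its ratio from 0.727 to 2.21 towards the young library. Levels per kilobase differed widely among these subunits. Pole stood at 0.588 and 0.345 CPM per kilobase and Pold3 at 12.6 and 8.94. Pole3 stood at 268 and 276 and Pole4 at 289 and 506. Pole4 was above Gmnn in both libraries, and Pole3 in the young library only.

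**Figure D2:**
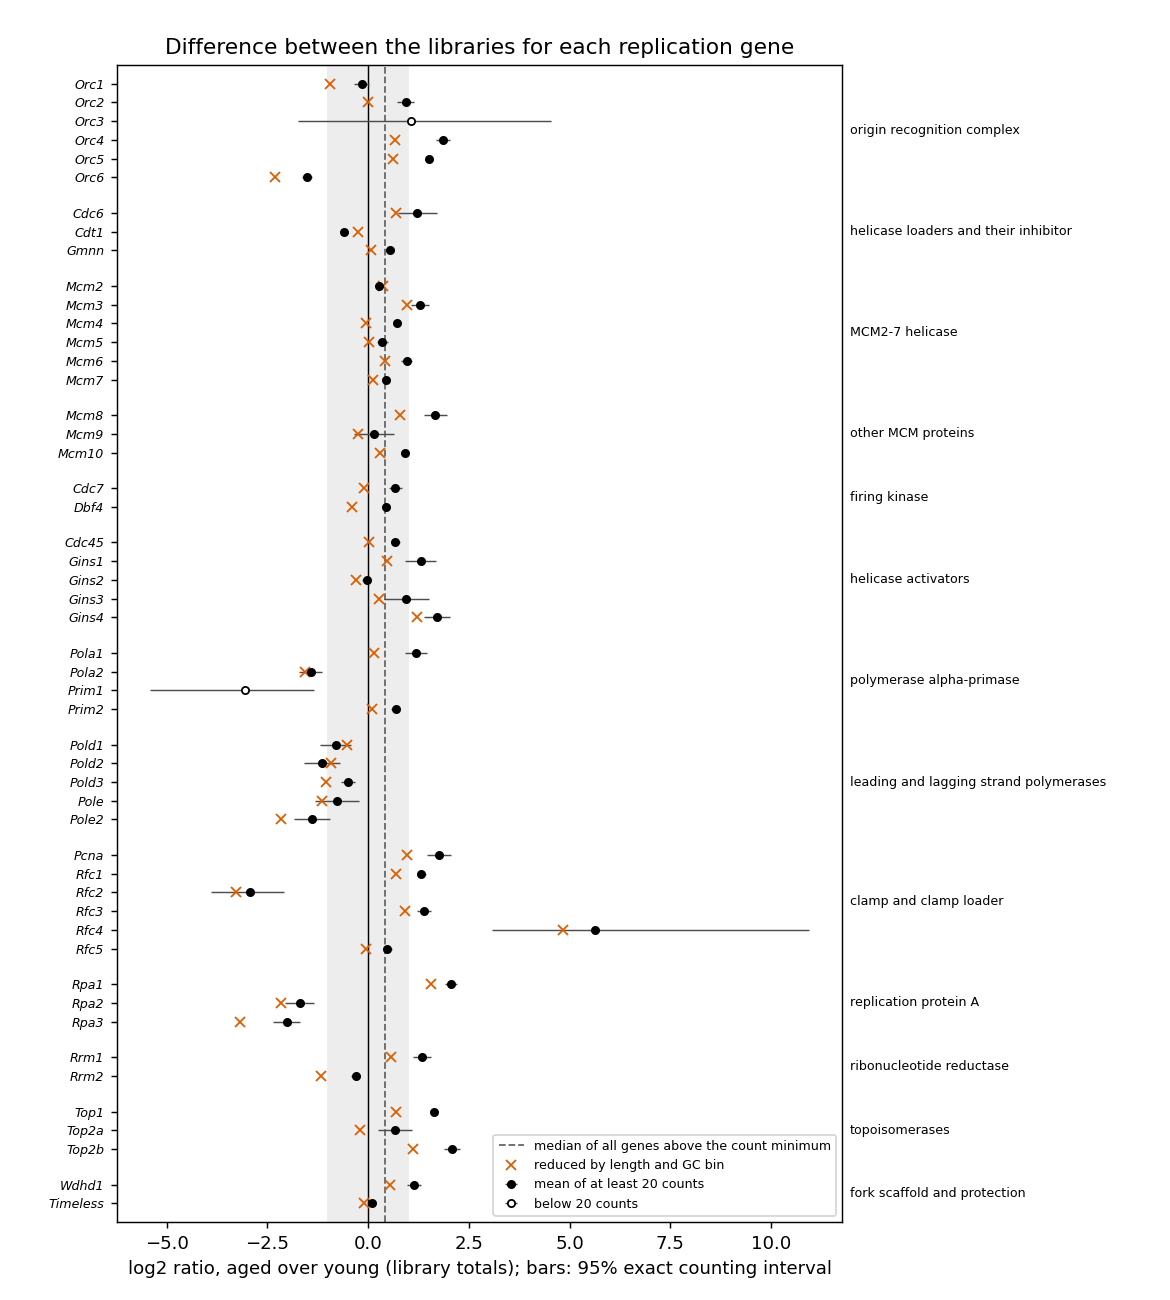
log2 ratio of aged over young for each member (dots; bars are 95% exact counting intervals), with open dots for the 2 genes below 20 counts and crosses for the ratio set against genes of like length and GC content. The grey band marks 2-fold and the dashed line the median of all genes at 0.43; subunits of ORC, polymerase alpha, the clamp loader and replication protein A lie on both sides of it.

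Of the 6 genes of the sliding clamp and its loader, 4 were higher by 2-fold or more and Rfc2 was lower. Pcna, the ring that tethers polymerases to DNA, had 129 and 417 counts, 3.39-fold higher (2.77 to 4.16). A processed copy, Pcna-ps2, had 402 and 259 counts, and reads may have been divided between the gene and its copies. The loader, replication factor C, consists of a large subunit, Rfc1, and 4 small ones. Rfc1 had 891 and 2129 counts, 2.50-fold higher (2.31 to 2.71), Rfc3 341 and 850, 2.61-fold higher (2.30 to 2.97), and Rfc5 1130 and 1504, 1.39-fold higher (1.29 to 1.51), although Rfc5 stood at −0.05 against genes of like length and GC content.

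Rfc2 and Rfc4 gave the lowest and the highest ratio of the 48 members above the minimum, which each of them passed only through the library where it was high. Rfc2 had 104 and 13 counts, 7.64-fold lower in the aged library (4.28 to 14.8). Rfc4 had 1 and 47 counts, a ratio of 49.2 with an interval of 8.41 to 1985, since the young value is a single count. Rfc3 relative to Rfc2 was 3.28 in counts of the young pool and 65.4 in the aged, a factor of 19.9 (10.95 to 39.1). Rfc4 exons overlap those of Eif4a2 by 194 bases and Rfc2 exons those of Lat2 by 952, each on the other strand. Eif4a2 had 338 and 434 counts and Lat2 10 and 4.

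Replication protein A, a trimer that coats single-stranded DNA, was split between a higher and 2 lower subunits. Rpa1, the large subunit that binds DNA, had 541 and 2148 counts, 4.16-fold higher in the aged library (3.78 to 4.58). Rpa2 had 291 and 86 counts, 3.23-fold lower (2.53 to 4.16). Rpa3 had 384 and 90 counts, 4.07-fold lower (3.23 to 5.18). The count ratio of Rpa1 to Rpa3 passed from 1.41 to 23.9, a factor of 16.9 (13.1 to 21.9), and that of Rpa1 to Rpa2 from 1.86 to 24.98, a factor of 13.4 (10.3 to 17.6). Rpa2 relative to Rpa3 changed by a factor of 1.26, with an interval of 0.891 to 1.78 that includes no change.

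Length differed among these 3 transcripts, which were 5077 bases for Rpa1, 1813 for Rpa2 and 670 for Rpa3. Against genes of like length and GC content the log2 ratios were 1.57, −2.15 and −3.17, so the log2 gap between Rpa1 and Rpa3 was 4.74 in place of 4.08 and that between Rpa2 and Rpa3 1.02 in place of 0.33. Per kilobase, Rpa3 was the highest of the trimer in the young library, at 29.4 CPM against 5.47 CPM for Rpa1. In the aged library Rpa1 was the highest, at 22.7 CPM against 7.22 CPM for Rpa3. In counts, without division by length, Rpa1 was the highest of the trimer in both libraries.

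**Figure D3:**
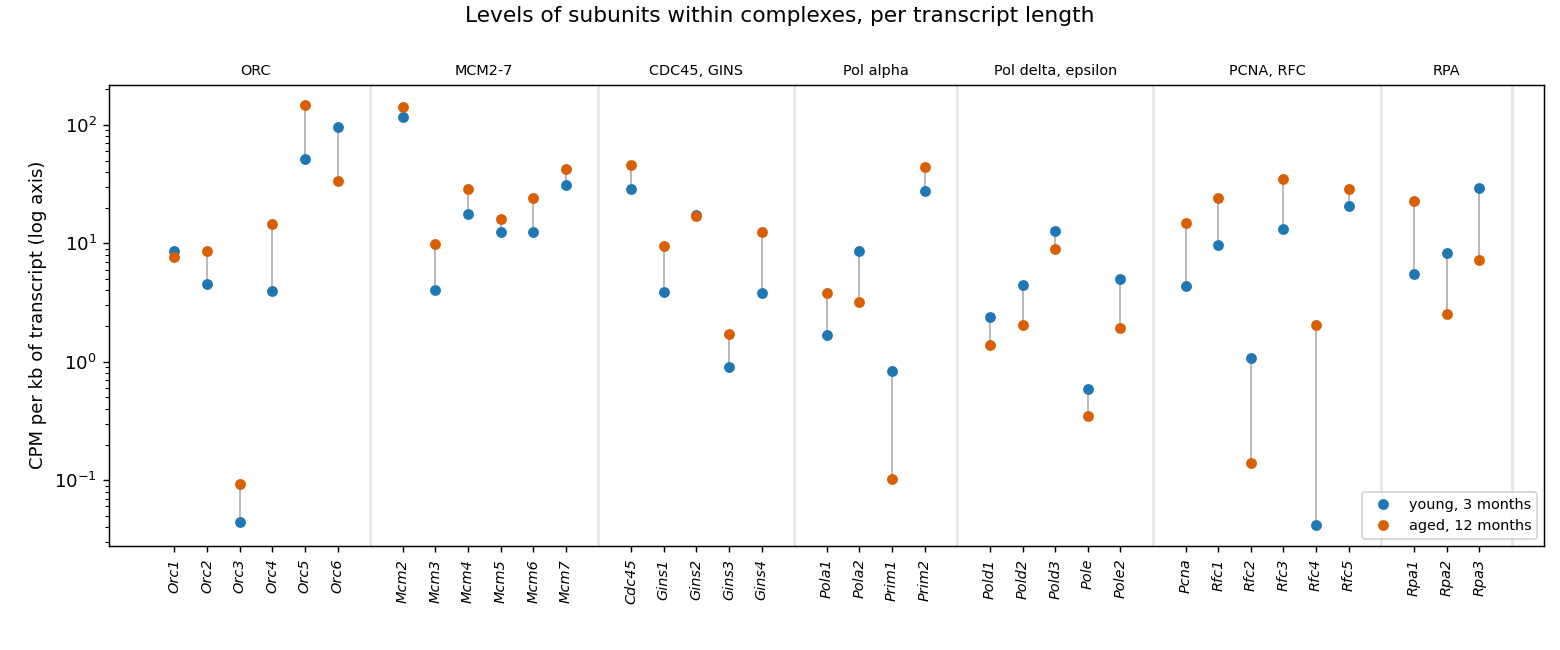
Level of each subunit in CPM per kilobase of transcript (log axis) in the young (blue) and aged (orange) library, by complex. Mcm2 lies above the rest of its ring in both libraries, and the order of Rpa1 and Rpa3 per kilobase is exchanged between them. In counts Rpa1 was above Rpa3 in both libraries (541 and 384 in young, 2148 and 90 in aged).

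Ribonucleotide reductase, which makes the deoxynucleotides, has a large subunit, Rrm1, and a small one, Rrm2. Rrm1 had 246 and 591 counts, 2.52-fold higher (2.16 to 2.93), and Rrm2 1387 and 1069, 1.24-fold lower (1.14 to 1.34). Their count ratio, Rrm1 over Rrm2, grew by a factor of 3.12 (2.63 to 3.71). All 3 topoisomerases, which relieve the twist ahead of the fork and untangle daughter strands, had more CPM in the aged library, though Top2a stood at −0.21 against genes of like length and GC content. Top2b had 252 and 1018 counts, 4.23-fold higher (3.68 to 4.88), and Top1 2220 and 6558, 3.09-fold higher (2.95 to 3.25). Top2a, the form of dividing cells, had 81 and 123 counts, 1.59-fold higher (1.19 to 2.13). The exons of Top2b overlap those of Rarb by 1793 bases, and Rarb had 0 and 5 counts. At the fork itself, Wdhd1, which links the helicase to polymerase alpha, had 442 and 926 counts, 2.19-fold higher (1.96 to 2.46). Timeless, of the fork protection complex, had 1388 and 1404, a ratio of 1.06 (0.983 to 1.14) that falls below the median gene.

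Another 60 replication genes were listed beside the members, of which 58 had counts and 49 averaged 20 or more. Among the 49, 10 were higher by 2-fold or more, where 27.9% of all genes were, and 4 lower, where 10.6% were, and the median of their log2 ratios was 0.29, beside 0.43 for all genes. The 5 highest were Cul4b (518 and 1987 counts), Rif1, a timing factor of replication (439 and 1299), Fbxo5 (99 and 288), Tk1, thymidine kinase (71 and 206), and Dscc1, of an alternative clamp loader (13 and 33). Their ratios ran from 2.66-fold for Dscc1 to 4.02-fold for Cul4b. Dscc1, with an interval of 1.36 to 5.50, passed the count minimum only through the aged library, where it was high.

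The lowest were Tonsl, which guards new histones at the fork, with 58 and 3 counts, and Fen1, the nuclease that trims Okazaki fragments, with 38 and 2. Both passed the count minimum only through the young library, where they were high, and with a minimum of 100 counts 1 of the 4 lower genes was left. Their ratios towards the young library were 18.5 (6.01 to 92.1) and 18.1 (4.69 to 155). Chaf1a, the large subunit of the chromatin assembly factor, had 615 and 130 counts, 4.52-fold lower (3.73 to 5.50). Mtbp, of origin firing, had 146 and 49 counts, 2.85-fold lower, and Lrwd1, which binds ORC, had 9707 and 4819, 1.92-fold lower. Mms22l, the partner of Tonsl, had 1275 and 1493 counts; it was chosen after its values were seen.

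Among S-phase cyclins, Ccna2 had 5496 and 10899 counts, 2.08-fold higher (2.01 to 2.15). Ccne1 had 151 and 107 counts and Ccne2 355 and 554, both within 2-fold, and Cdk2, their usual kinase, had 2 and 4. The list of licensing inhibitors and turnover factors holds subunits of the ubiquitin ligase that destroys Cdt1 during S phase. Its adaptor Dtl had 913 and 1961 counts, 2.25-fold higher (2.08 to 2.44), and Fbxo5, which restrains the anaphase-promoting complex, 3.05-fold (2.42 to 3.87). Ddb1, the most counted gene of that list, had 55823 and 36998 counts, 1.44-fold lower. The scaffolds of the ligase differed, with Cul4b 4.02-fold higher and Cul4a 1.29-fold lower (436 and 324 counts). Skp2, of another ligase, had 139 and 144.

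The ratio of a gene varied with the base composition of its transcript among the members as among all genes. Across the 48 members, Spearman's rho between log2 ratio and GC content was −0.45, and it was −0.40 across 9902 genes. The genes share 2 libraries and are not independent, so this is a description. Of 33 members with a GC content under the median of all genes (49.9%), 15 were higher by 2-fold or more and 3 lower, and of all 4950 genes there 1956 were higher and 232 lower. Of the other 15, 2 (Mcm3 and Gins4) were higher and 4 lower (Pola2, Pold2, Rfc2 and Rpa2), beside 806 higher and 803 lower of all 4952 genes. The median log2 ratio was 0.95 in the first set and −0.03 in the second, beside 0.77 and 0.07 for all genes divided in the same way.

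To set each gene against others of like length and GC content, genes were placed in a grid of 10 length classes and 10 GC classes, and the class median was subtracted from the log2 ratio. On that scale 4 members were higher by 2-fold or more, against 13.4% of all genes. They were Gins4, Rfc4, Rpa1 and Top2b. At least 2-fold lower were 9, against 14.9%, namely Orc6, Pola2, Pold3, Pole, Pole2, Rfc2, Rpa2, Rpa3 and Rrm2. The members' median then was 0.06. Orc6, Pole2 and Rpa3 were low at GC contents of 45.1%, 44.7% and 40.4%, below the median of all genes. The part of base composition in these differences was not tested further.

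**Figure D4:**
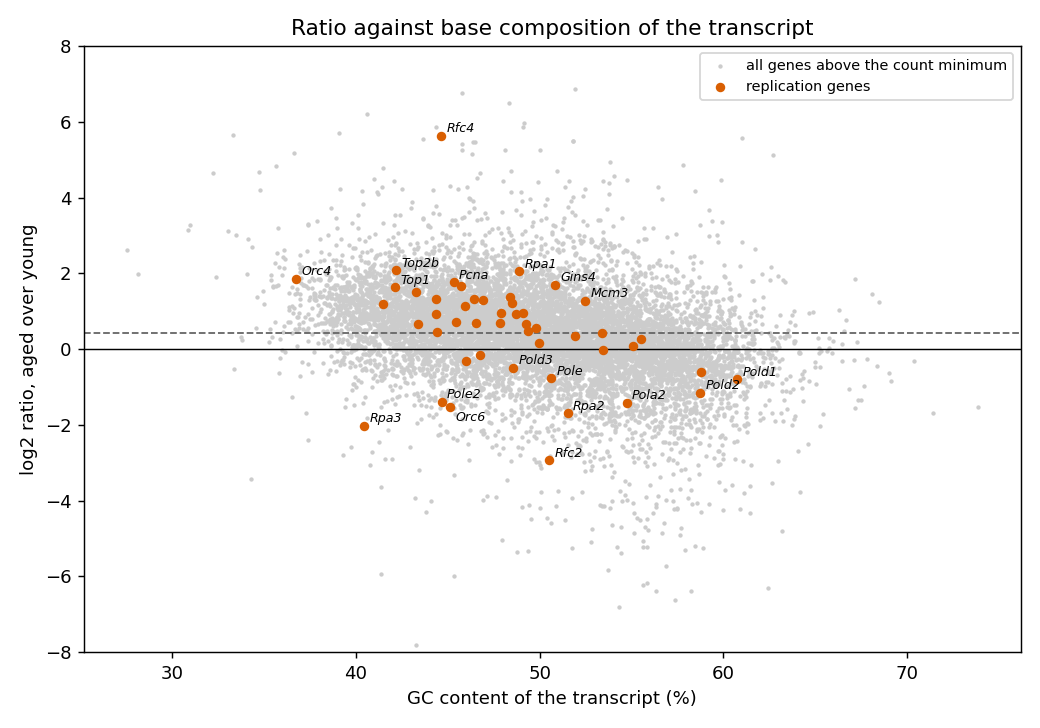
log2 ratio of aged over young against the GC content of the transcript for all genes above the count minimum (grey) and for the members (orange); the dashed line marks the median of all genes. Most members follow the fall of the grey cloud with rising GC content, while Rpa3, Orc6 and Pole2 lie at its lower edge at low GC content and Rfc4 lies near its top.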

How the data were processed

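The 2 libraries compared were 1 of young and 1 of aged MII oocytes, each lysed as a pool and amplified by PCR from oligo(dT)-primed cDNA without molecular identifiers, per the labels' protocols; sequencing was on a SOLiD instrument. Genome build mm9 is named in the submitters' processing notes. Not given in the sources used here are the aligner, the counting program, the annotation, the use of strand and the treatment of reads with several matches. The values used are raw counts per Ensembl gene as deposited by the authors. The authors' deposited log2 fold changes (young over aged, scaled to library totals) matched the log2 ratios computed here with the sign turned, within 0.001, for all 50 members, and were used only for that check. Score, p-value and q-value columns were not used.

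Symbols came from GENCODE mouse release 21 and matched 93.7% of the genes with counts. Length, GC content, the 3′ end and exon overlaps are those of that release (GRCm38), taking the longest principal transcript by APPRIS and otherwise the longest coding or other transcript; 97.0% of genes above the minimum had one. Annotated transcripts of Rfc2, Gins2 and Top2b are long forms, so their levels per kilobase are uncertain. The annotated 3′ UTR of Rpa1 is 3139 bases long, so its level per kilobase is uncertain too. Genes that averaged 20 counts or more were kept, and 3 counts stood in for 0. Intervals of a ratio are exact (Clopper-Pearson), computed on the share of counts from aged oocytes, and intervals of a factor between subunits are exact conditional or, for large counts, Wald intervals. The script was tested on simulated data. Every member is given, and of the other replication genes the 5 highest and 5 lowest and the cyclin and licensing lists. The members and lists were chosen with earlier results of these data known. Software was matplotlib 3.10.9, pandas 2.3.3, scipy 1.17.1 and numpy 2.4.6 under Python 3.11.15, and edgeR 4.0.16 in R 4.3.3 gave TMM factors (trimmed mean of M-values) of 0.878 (young) and 1.14 (aged), for an alternative scaling only.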

Additional observations from a re-analysis of the deposited data

How the results depend on the processing

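No paired analysis was possible because each age had 1 library, and for the same reason no replicate could be left out. With library totals 17 members were higher in the aged pool by 2-fold or more and 7 lower. There were 9 higher relative to the median gene, 10 with TMM factors and 4 after reduction by length and GC bins; the members' median log2 ratio of 0.68 became 0.25, 0.30 and 0.0561, or 0.39 when the 100 most abundant genes were omitted from the totals. These scalings moved the median of all genes from 0.43 to 0, 0.05, 0 and 0.14. The 3 scalings other than the reduction lowered every log2 ratio, so the 7 lower members could not lose that call under them. After the reduction 6 of the 7 (not Pold2) kept it. Leaving out the 12 members whose exons overlap another coding gene gave 14 higher and 4 lower of 36. This alternative was added after the data were seen. It left out the higher Orc4, Rfc4 and Top2b and the lower Orc6, Pole2 and Rfc2. Of all genes, which were not limited in that way, 27.9% were higher and 10.6% lower. The other replication genes had 10 higher and 4 lower, with 4, 5 and 5 higher under those scalings and 1 higher and 7 lower after the reduction, and 1 lower with a minimum of 100 counts. In the settings run, other than that minimum and the overlap alternative, Gins4, Rfc4, Rpa1 and Top2b kept a call as higher and Orc6, Pola2, Rfc2, Rpa2 and Rpa3 as lower. Of these, the minimum of 100 counts left out Rfc2 and Rfc4, and the overlap alternative left out Orc6, Rfc2, Rfc4 and Top2b. Rfc2 and Rfc4 passed the minimum of 20 only through the library where they were high. Whether a called member would change direction could not be tested with the 3 scalings, the minimums or the added counts. A call needs 2-fold, and those scalings moved all genes alike by at most 0.43. Minimums and added counts cannot turn the direction of a called ratio.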
